A study of Homo sapiens with 18 samples.

Results

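The ATF4 program was followed here through 32 listed genes of the 58037 Ensembl gene IDs in the count table. The list is fixed by name, without a threshold on a measured value, and was drawn up with earlier results of these data known. It holds ATF4 with targets of this factor, the enzymes that make serine, glycine, asparagine, proline and alanine or handle branched-chain and sulfur amino acids, and 6 aminoacyl-tRNA synthetases. All 32 were matched by symbol. They were sorted by role into 4 regulators of transcription, 7 feedback and stress effectors, 6 enzymes of serine, glycine and mitochondrial folate metabolism, 5 enzymes of asparagine, proline and transamination, 4 branched-chain aminotransferases and transsulfuration enzymes, and the 6 synthetases.

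ATF4 is a transcription factor of the integrated stress response. When kinases that sense missing amino acids, unfolded proteins, viral RNA or lack of heme phosphorylate the initiation factor eIF2, translation falls in general while the ATF4 mRNA is translated more, so the ATF4 protein can rise without a change in its mRNA. With CEBP and other bZIP partners it then activates genes for amino acid synthesis and transport and for tRNA charging, together with PPP1R15A and TRIB3, which damp the response. Leukemic cells grow fast and are known to rely on several of these enzymes, and asparaginase, a drug used in acute leukemia, acts by removing the amino acid that ASNS makes.

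Total RNA of 3 cell lines of human acute myeloid leukemia (AML) was sequenced after 16 h with VTP50469, a Menin inhibitor that the study also names SNDX-50469, with the BET inhibitor OTX015, with both, or with neither (labelled Control, with no vehicle named). MOLM13 cells, which carry MLL-AF9, had 4 groups of 2 libraries: control, 500 nM VTP50469, 500 nM OTX015, and 500 nM of each. MV4-11 cells, also MLL-rearranged, had 2 control libraries and 2 with 1000 nM VTP50469, and OCI-AML3 cells, which have germline MLL and mutant NPM1, had 3 control libraries and 3 with 500 nM VTP50469. MOLM13 and OCI-AML3 cells were kept in RPMI and MV4-11 cells in IMDM, with 20% serum in both media, so line, medium and, for MV4-11, dose cannot be told apart. The study's methods add non-essential amino acids to the media, which several enzymes followed here make. Each line is an established culture of 1 leukemia, OTX015 was given to MOLM13 alone, and the replicates of MOLM13 and OCI-AML3 are described as biologic, while nothing says so of MV4-11.

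Totals ran from 19320216 to 59711884 counts per library, highest in OCI-AML3. The MV4-11 replicates were the least alike: the common biological coefficient of variation was 13.2% there, against 3.06% in MOLM13 and 3.16% in OCI-AML3, and mitochondrial transcripts took 10.3% of the counts in MV4-11 control replicate 1 and between 5.60 and 6.68% in the other MV4-11 libraries. Known responders to the agents were checked: MEIS1, a Menin-dependent gene, fell from 36.0 and 40.6 CPM to 6.47 and 6.18 CPM with VTP50469 in MOLM13 (log2 fold-change -2.60 ± 0.094) but was at 27.2 and 27.0 CPM with both agents and 49.4 and 45.5 with OTX015, and HEXIM1, which BET inhibitors raise, went from 49.8 and 51.5 CPM to 218 and 219 CPM with OTX015 (2.11 ± 0.050). Levels are CPM (counts per 1000000 counts of a library) after TMM scaling (edgeR's trimmed mean of M-values), within a line unless stated. All 6 myeloid markers checked were detected in every library, but their levels moved with the groups. In MOLM13, MPO went from 99.9 and 98.7 CPM in the control to 3.73 and 4.86 with OTX015 and 5.26 and 6.74 with both, and it was called higher with VTP50469 (0.70 ± 0.051). LYZ and SPI1 were also lower with both agents (-0.80 ± 0.046 and -0.59 ± 0.040). With VTP50469 alone, LYZ went up instead, from 205 and 216 CPM in the control to 411 and 387. CD33 went from 124 and 122 CPM in the control to 81.9 and 85.1 with both. CEBPA and PTPRC rose instead. With both agents CEBPA went from 349 and 342 CPM to 562 and 543, and PTPRC from 90.2 and 93.9 CPM to 153 and 158. Among markers of other cells, CD3E and EPCAM stayed between 0 and 0.096 CPM, and COL1A1 was highest in MOLM13 with both agents (2.78 and 2.34 CPM against 0.481 and 0.674 CPM in the control), and their part in the results was not tested.

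ATF4 binds DNA with a CEBP partner at the element TGATGNAA, and ASNS holds a well-known copy of it. This element was looked for on both strands in the RefSeq promoter table (GRCh38.p14, from 250 bases before to 50 after each start), which had entries for 25 of the 32 genes. It was found for 7 of these 25 genes (28%) and in 3.62% of all 35116 promoters, or for 4.46% of the 27305 genes of the table. The matches of 6 genes lay wholly upstream and are shown to set beside the expression values below, as 100 bases 5′ to 3′ on the gene's strand with the match in capitals, at GRCh38.p14 coordinates.
ASNS, chr7:97872409-97872508, minus strand: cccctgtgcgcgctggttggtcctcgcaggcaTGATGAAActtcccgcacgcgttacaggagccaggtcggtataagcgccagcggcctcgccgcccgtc
BCAT1, chr12:24949102-24949201, minus strand: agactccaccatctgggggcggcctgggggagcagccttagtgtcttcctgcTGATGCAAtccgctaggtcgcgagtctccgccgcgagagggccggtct
CHAC1, chr15:40953221-40953320, plus strand: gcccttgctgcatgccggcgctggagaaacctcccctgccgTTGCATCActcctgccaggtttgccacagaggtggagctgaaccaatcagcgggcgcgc
IARS1, chr9:92293698-92293797, minus strand: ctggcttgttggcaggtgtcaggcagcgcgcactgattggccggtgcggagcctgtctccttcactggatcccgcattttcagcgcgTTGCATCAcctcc
GARS1, chr7:30594778-30594877, plus strand: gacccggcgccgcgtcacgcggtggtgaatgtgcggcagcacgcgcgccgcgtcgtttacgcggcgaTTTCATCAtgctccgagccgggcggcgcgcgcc
GOT1, chr10:99430769-99430868, minus strand: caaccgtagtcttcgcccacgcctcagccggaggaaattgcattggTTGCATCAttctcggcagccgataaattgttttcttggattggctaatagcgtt
The match began 68 bases before the start in ASNS, 48 in BCAT1, 209 in CHAC1, 13 in IARS1, 33 in GARS1 and 198 in GOT1, on the sense strand in ASNS and BCAT1 and read on the other strand in the remaining 4. In MARS1 it crossed the start. BCAT1 has 5 listed starts, and ASNS and GARS1 have 2 each, of which 1 each held the match. A match is a description of these letters and not a measured binding site.

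A gene is called here when its adjusted p was below 0.05 (edgeR's quasi-likelihood test, Benjamini-Hochberg over all genes tested) with a change of at least 1.25-fold. With VTP50469 alone 1 of the 32 genes was called lower in MOLM13 and 0 higher, where 5.24% of all tested genes were called lower and 8.06% higher. With OTX015 alone 23 were lower and 2 higher (all genes: 24.7% and 23.5%), and with both agents 24 were lower and 2 higher than in the control (all genes: 30.9% and 31.2%). The median log2 fold-change of the 32 genes was -0.06, -0.54 and -1.0 in these 3 comparisons, which share their control libraries, while the median of all tested genes was 0.01, 0.01 and 0.02. In MV4-11, VTP50469 alone left 23 of 32 lower and 0 higher (all genes: 9.34% and 11.4%), with a median of -0.75. In OCI-AML3 3 of the 31 genes tested were lower and 1 higher (all genes: 4.53% and 8.58%), with a median of -0.10. In bulk RNA, fewer cells that express a gene and less of its RNA per cell cannot be told apart. The counts hold no spike-in, so all levels are relative and a change in total RNA per cell would not be seen.

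**Figure D1:**
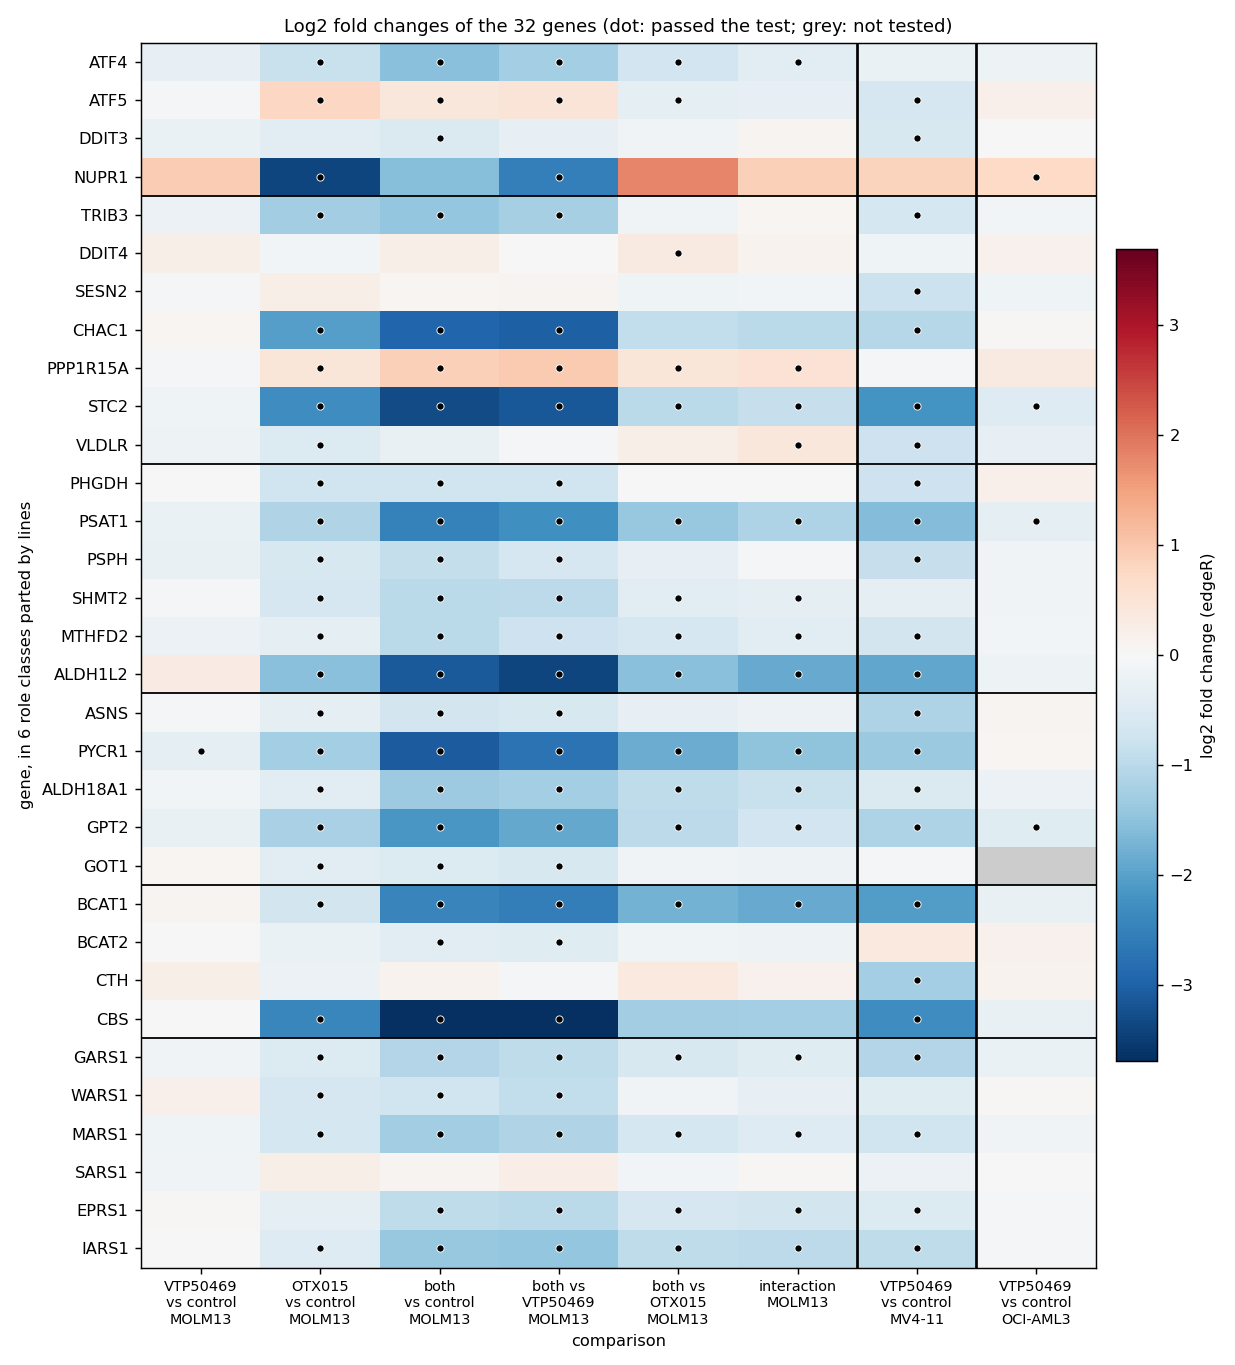
Log2 fold changes (edgeR, color scale) of the 32 genes (rows, in 6 role classes) in the 6 MOLM13 comparisons and with VTP50469 in MV4-11 or OCI-AML3 (columns), where a dot marks a called gene and grey a gene not tested. Blue fills the columns of both agents, with 24 genes lower against the control, and of MV4-11, with 23 lower, while the first column holds a single dot, at PYCR1.

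Among the regulators in MOLM13, the ATF4 mRNA itself was lower with both agents. ATF4 was at 537 and 522 CPM in the control, 433 and 431 with VTP50469, 303 and 296 with OTX015 and 185 and 179 with both in the 2 libraries of each group, so the 4 groups stood in steps with no overlap. Its log2 fold-change was -0.29 ± 0.038 with VTP50469, a change below the fold limit (-0.33 and called without the filter on low counts), -0.82 ± 0.039 with OTX015 and -1.54 ± 0.040 with both (adjusted p = 2.90e-42), or 2.91-fold lower. ATF5, a related bZIP factor whose mRNA is also under translational control, went the other way, with a log2 fold-change of 0.77 ± 0.063 with OTX015 and 0.42 ± 0.064 with both. DDIT3, which encodes the stress factor CHOP, was at 4.77 and 4.45 CPM in the control, 4.31 and 3.43 with VTP50469, 2.96 and 3.97 with OTX015 and 3.18 and 3.13 with both, low in every group. Its change was called with both agents (-0.54 ± 0.19) and not with OTX015 (-0.41 ± 0.19), and the former call was lost without MOLM13 control replicate 1 (-0.50) or with DESeq2 (-0.55). With OTX015 it was called without OTX replicate 2 (-0.63) or combination replicate 1 (-0.40). DDIT3 shares 65 annotated bases with MARS1 and 2769 with LOC128125814, and ATF5 shares 599 with both IL4I1 and NUP62. With the strand setting of the counts unknown, reads in those stretches cannot be told apart. Whether the annotation used for counting holds LOC128125814 is not known. NUPR1, a small stress-induced chromatin protein, gave 13 counts in the 2 control libraries and 1 in the 2 OTX015 libraries, a ratio of 12.8 with a 95% counting interval from 1.92 to 543. Its call with OTX015 was lost without MOLM13 control replicate 1 (-2.66) or OTX replicate 1 (-2.55), and with both agents it was not called but passed without control replicate 2 (-2.10).

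The feedback and stress effectors were divided. With both agents 3 of 7 were lower, 1 was higher and 3 were not called (all genes: 30.9% lower and 31.2% higher). STC2, a secreted glycoprotein induced by stress, was at 20.6 and 17.2 CPM in the control, 16.0 and 17.8 with VTP50469, 2.77 and 4.91 with OTX015 and 2.22 and 1.64 with both, with the OTX015 and combination libraries all far below the others. Its log2 fold-change was -2.29 ± 0.14 with OTX015 and -3.29 ± 0.17 with both (adjusted p = 3.76e-27). CHAC1, which breaks down glutathione, was at 4.28 and 5.39 CPM in the control, 6.25 and 4.06 with VTP50469, 0.669 and 1.68 with OTX015 and 0.506 and 0.748 with both. It changed by -2.03 ± 0.26 with OTX015 and -2.93 ± 0.30 with both, and by 0.08 ± 0.19 with VTP50469, which was not called. TRIB3, a pseudokinase that restrains ATF4 and AKT, was lower by a log2 fold-change of -1.29 ± 0.058 and -1.42 ± 0.059 with OTX015 and with both. PPP1R15A (GADD34), which directs the phosphatase that removes phosphate from eIF2, rose instead, by 0.44 ± 0.066 and 0.89 ± 0.063, from 37.4 and 35.2 CPM in the control to 68.9 and 66.1 CPM with both. VLDLR, a lipoprotein receptor, was called lower with OTX015 (-0.49 ± 0.080) but not with both (-0.27 ± 0.079). DDIT4 and SESN2, which hold back mTORC1, had values of 0.22 ± 0.12 and 0.08 ± 0.073 with both and were not called.

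Every enzyme of serine, glycine and mitochondrial folate metabolism was lower in MOLM13 with OTX015 and with both agents (all genes: 24.7% and 30.9%). Their median log2 fold-change was -0.68 and -1.0. The extremes were ALDH1L2 and PSAT1. ALDH1L2, a mitochondrial enzyme that turns formyl-tetrahydrofolate into tetrahydrofolate, was at 47.5 and 49.4 CPM in the control, 58.1 and 61.0 with VTP50469, 16.7 and 16.4 with OTX015 and 6.32 and 4.96 with both. The VTP50469 libraries lay above the control, and those with both agents lowest by far. The log2 fold-change was 0.30 ± 0.064 with VTP50469, -1.55 ± 0.077 with OTX015 and -3.11 ± 0.094 with both, 8.62-fold lower. PSAT1, which catalyzes the transamination step of serine synthesis, was at 225 and 226 CPM in the control, 188 and 189.8 with VTP50469, 106 and 103 with OTX015 and 37.1 and 42.1 with both. No 2 groups overlapped, and the log2 fold-change came to -0.25 ± 0.044, -1.11 ± 0.046 and -2.51 ± 0.052. The enzymes on either side of it in the pathway fell less with both agents: PHGDH, the entry step from glycolysis, changed by -0.75 ± 0.045, and PSPH, the last step, by -0.88 ± 0.065. SHMT2, which splits serine to glycine in mitochondria, and MTHFD2, which carries the released carbon on, changed by -1.01 ± 0.041 and -0.98 ± 0.046. PSPH has near-identical pseudogene copies and MTHFD2 shares 1324 annotated bases with SLC4A5, so a part of either count may be misassigned.

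The enzymes of asparagine and proline synthesis and transamination were lower in all 5 cases with OTX015 and with both (all genes: 24.7% and 30.9%). PYCR1, which makes proline from its pyrroline precursor, was the 1 gene of the 32 called with VTP50469 alone in MOLM13. It was at 139 and 136 CPM in the control, 110.0 and 104 with VTP50469, 57.6 and 58.5 with OTX015 and 17.2 and 15.2 with both, a descent without overlap, and its log2 fold-change was -0.36 ± 0.049 (adjusted p = 2.52e-08), -1.24 ± 0.053 and -3.09 ± 0.064 (adjusted p = 1.66e-47). The first of these stayed near the fold limit: it was -0.31 without scaling factors and -0.32 with limma-voom and quantile normalization, which ended the call, and ALDH1L2 was called higher without scaling factors (0.35), in place of PYCR1, and beside it when MOLM13 control replicate 2 (0.32) or VTP replicate 1 (0.33) was left out. ALDH18A1, which makes that precursor from glutamate, fell by 1.35 ± 0.050 with both. GPT2, the mitochondrial alanine aminotransferase, was at 112 and 116 CPM in the control, 94.9 and 94.5 with VTP50469, 50.3 and 49.8 with OTX015 and 25.1 and 25.9 with both. Its groups did not overlap, and it changed by -1.19 ± 0.054 with OTX015 and -2.16 ± 0.060 with both. ASNS, the asparagine synthetase with the element shown above, was at 72.4 and 69.2 CPM in the control, 66.3 and 67.6 with VTP50469, 56.0 and 53.2 with OTX015 and 41.7 and 46.4 with both. It changed by -0.38 ± 0.058 with OTX015 and -0.68 ± 0.060 with both, and -0.08 ± 0.057 with VTP50469 was not called. GOT1, the cytosolic aspartate aminotransferase, fell by 0.51 ± 0.074 with both.

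BCAT1 and CBS, on the other hand, had a homolog and a partner that moved less. BCAT1, the cytosolic branched-chain aminotransferase, was at 156 and 156 CPM in the control, 169 and 167 with VTP50469, 102 and 93.0 with OTX015 and 26.8 and 30.6 with both. The control and VTP50469 libraries were apart by little, and the log2 fold-change was -0.68 ± 0.049 with OTX015 and -2.44 ± 0.058 with both (5.41-fold lower), while BCAT2, its mitochondrial counterpart, changed by -0.42 ± 0.059. CBS, which joins serine and homocysteine in transsulfuration, was at 2.89 and 2.92 CPM in the control, 3.61 and 2.12 with VTP50469, 0.573 and 0.514 with OTX015 and 0.303 and 0.140 with both. It was low throughout, with 6 and 3 counts in the libraries with both agents, and changed by -3.70 ± 0.41. CTH, the next enzyme of that pathway, was not called (0.14 ± 0.21). The reference genome holds a near-identical copy of CBS, so reads may have been split or dropped and its level is uncertain. BCAT1 shares 5936 annotated bases with LOC124902898, so a part of its count may be misassigned.

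Of the 6 synthetases, 5 were lower with both agents (all genes: 30.9%) and SARS1, the seryl-tRNA synthetase, was not called (0.12 ± 0.048). IARS1, for isoleucine, was at 377 and 399 CPM in the control, 398 and 393 with VTP50469, 281 and 282 with OTX015 and 145 and 148 with both, nearly level between the first pair of groups and lower in each of the others. MARS1, for methionine, was at 259.7 and 273 CPM in the control, 233 and 240.0 with VTP50469, 167 and 171 with OTX015 and 108 and 109 with both. Their log2 fold-changes with both agents were -1.40 ± 0.042 and -1.29 ± 0.044, followed by GARS1 (glycine, -1.09 ± 0.043), EPRS1 (glutamate and proline, -0.94 ± 0.039) and WARS1 (tryptophan, -0.73 ± 0.048). EPRS1 with OTX015 alone (-0.32 ± 0.038) lay just short of the fold limit and passed without MOLM13 control replicate 1 (-0.33) or OTX replicate 1 (-0.34). Besides the bases shared with DDIT3, MARS1 shares 757 annotated bases with ARHGAP9, so a part of its count may be misassigned.

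**Figure D2:**
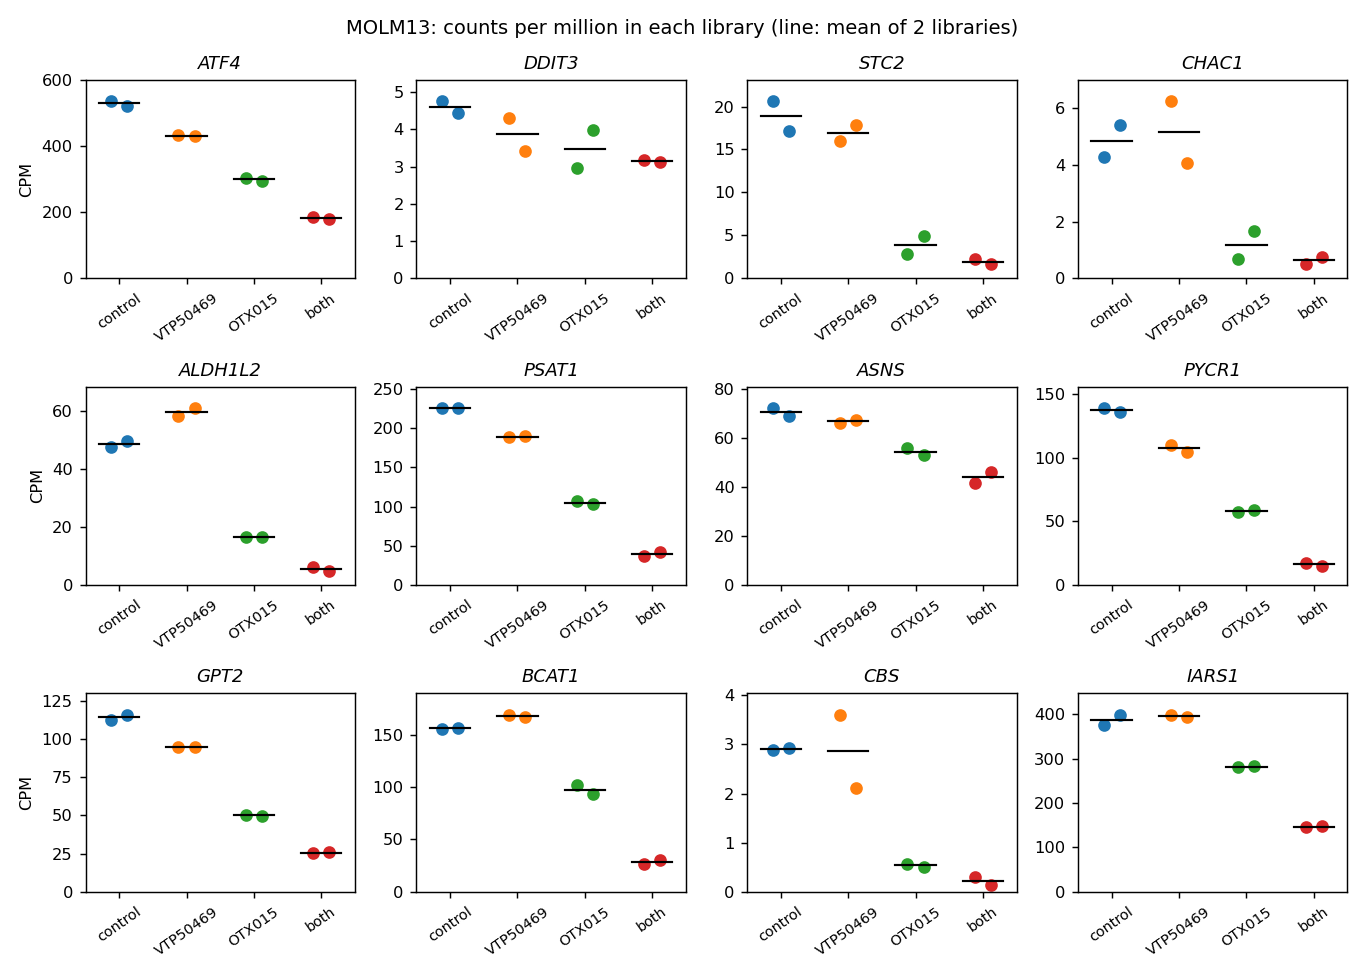
CPM (linear axes from 0) in each of the 8 MOLM13 libraries for 12 genes, with points for libraries and lines for the mean of 2. In most panels the OTX015 libraries sit below the control and those with both agents lower still, as for PYCR1 (139 and 136 in the control, 17.2 and 15.2 with both).

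The interaction asked whether VTP50469 changed these genes more in cells that also had OTX015 than in cells that did not. It is the log2 fold-change with both agents minus the sum of those of the single agents. For 14 of the 32 genes it was below 0 and called, and for 2 above 0 (all genes: 12.7% and 11.5%). BCAT1 had a sum of -0.57 and a combined change of -2.44, an interaction of -1.87 ± 0.077 (adjusted p = 1.02e-29), and ALDH1L2 a sum of -1.26 against -3.11, an interaction of -1.85 ± 0.13. In both genes VTP50469 alone gave a change above 0 that was not called, and VTP50469 added to OTX015 gave a fall (-1.76 ± 0.060 and -1.56 ± 0.11). PYCR1 (-1.49 ± 0.087), PSAT1 (-1.15 ± 0.071), IARS1 (-0.97 ± 0.057), ALDH18A1 (-0.83 ± 0.068) and GPT2 (-0.70 ± 0.082) followed, and ATF4 itself had -0.43 ± 0.056. PPP1R15A (0.52 ± 0.091) and VLDLR (0.42 ± 0.11) lay above the sum. TRIB3 (0.08 ± 0.084), PHGDH (-0.02 ± 0.064) and PSPH (-0.03 ± 0.091) had values close to 0 that were not called. The call of STC2 (-0.84 ± 0.25) was lost without MOLM13 OTX replicate 2 (-0.37) or combination replicate 2 (-0.63), and that of SHMT2 (-0.33 ± 0.058) without VTP replicate 2, OTX replicate 2 or combination replicate 2 (-0.30, -0.31 and -0.32). CHAC1 (-0.98 ± 0.45) and CBS (-1.26 ± 0.63) passed without VTP replicate 2 (-1.26 and -1.60) or, for CHAC1, OTX replicate 1 (-1.49), and ATF5 (-0.31 ± 0.090) without MOLM13 control replicate 1, VTP replicate 1 or OTX replicate 2 (-0.35, -0.36 and -0.33).

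**Figure D3:**
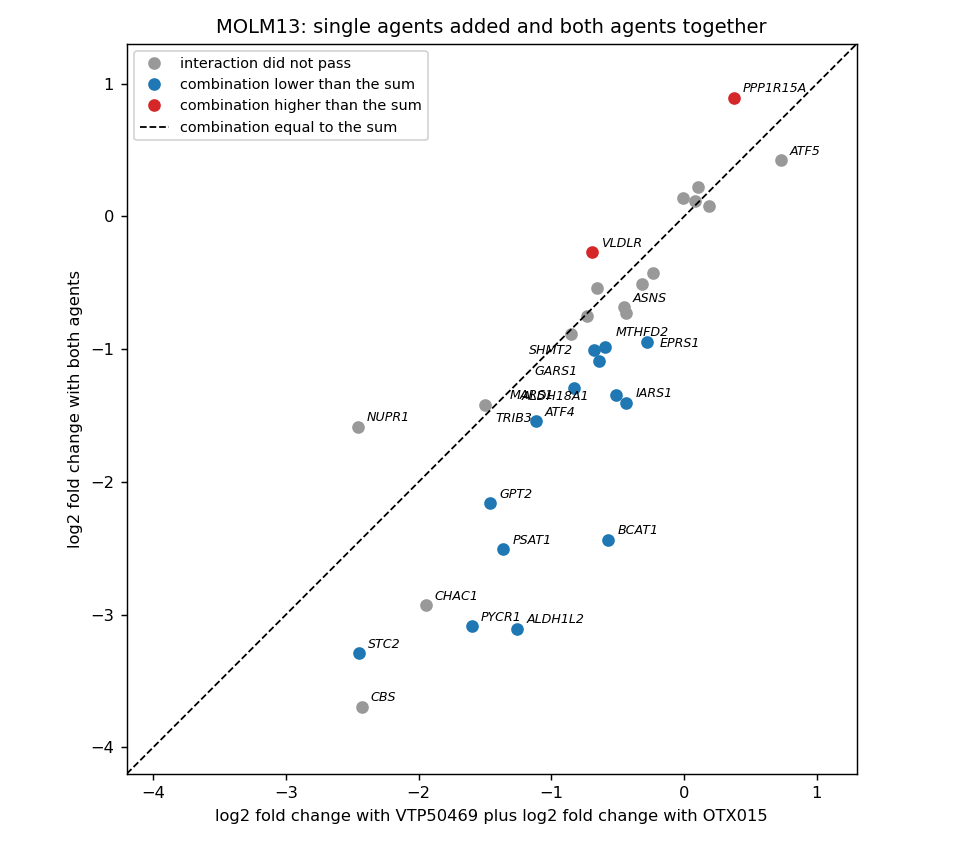
Sum of the single-agent log2 fold changes (x axis) against the log2 fold change with both agents (y axis) for the 32 genes in MOLM13, with a dashed line where the 2 are equal and colors for the interaction test. The 14 blue genes lie below the line, BCAT1 (-1.87) and ALDH1L2 (-1.85) farthest, and PPP1R15A and VLDLR lie above it.

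Against each agent alone, the combination gave 24 lower and 2 higher genes relative to VTP50469 (all genes: 29% and 27.9%) and 15 lower and 2 higher relative to OTX015 (all genes: 16.5% and 18.4%). ALDH1L2 differed from the VTP50469 libraries by -3.41 ± 0.092 and BCAT1 by -2.54 ± 0.057. Relative to OTX015, PYCR1 changed by -1.85 ± 0.070 and PSAT1 by -1.40 ± 0.055, whereas PHGDH (-0.02 ± 0.047), TRIB3 (-0.13 ± 0.065) and WARS1 (-0.12 ± 0.050) were not called. ATF5 was lower than with OTX015 alone (-0.34 ± 0.061) although above the control, and this call was lost without scaling factors (-0.29), with upper-quartile factors (-0.29), with limma-voom and quantile normalization (-0.28) and in 1 fit of all libraries (-0.31). The higher genes in this last comparison were PPP1R15A (0.45 ± 0.061) and DDIT4 (0.32 ± 0.12), and DDIT4 missed the fold limit or the test's threshold when any library other than combination replicate 2 was left out, the lowest value being 0.23 without combination replicate 1. The call of STC2 (-1.0 ± 0.23) was lost without OTX replicate 2 (-0.53).

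In MV4-11 cells, VTP50469 at 1000 nM lowered genes of every role class, and the ATF4 mRNA was not among those called. ATF4 was at 637 and 581 CPM in the control and 580.1 and 457 with VTP50469, where 1 treated library was level with the lower control and the other below it, and its log2 fold-change was -0.23 ± 0.17 (adjusted p = 0.362). Among the other regulators, ATF5 was at 391 and 304 CPM in the control and 261 and 195 with VTP50469 (-0.61 ± 0.18). DDIT3 stood at 36.4 and 29.0 CPM in the control and 24.4 and 18.6 with VTP50469 (-0.60 ± 0.18). NUPR1, in contrast, was at 2.22 and 1.14 CPM in the control and 3.54 and 2.30 with VTP50469 and was not called (0.83 ± 0.35).

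Of the effectors in MV4-11, 5 of 7 were called lower (all genes: 9.34%). STC2 was at 8.49 and 10.3 CPM in the control and 1.84 and 2.20 with VTP50469, a log2 fold-change of -2.22 ± 0.24 (adjusted p = 7.59e-06). CHAC1 was at 66.4 and 80.7 CPM in the control and 39.3 and 31.0 with VTP50469 (-1.07 ± 0.17). SESN2 was at 76.1 and 100.4 CPM in the control and 53.5 and 48.5 with VTP50469 (-0.79 ± 0.17). In all 3 genes the treated libraries lay clear of the controls. VLDLR was at 81.8 and 86.2 CPM in the control and 48.9 and 50.6 with VTP50469 (-0.76 ± 0.15), with replicates close together. TRIB3 was at 99.2 and 142 CPM in the control and 87.1 and 68.2 with VTP50469 (-0.64 ± 0.18), with controls far apart. PPP1R15A (-0.06 ± 0.17) and DDIT4 (-0.16 ± 0.22) were not called.

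The serine, glycine and folate enzymes of MV4-11 were led by ALDH1L2 and PSAT1. Of these enzymes 5 of 6 were called lower (all genes: 9.34%), and SHMT2 (-0.37 ± 0.15) was not. ALDH1L2 was at 60.9 and 66.5 CPM in the control and 17.8 and 15.9 with VTP50469 (-1.92 ± 0.16, adjusted p = 1.04e-06). PSAT1 was at 270.2 and 325 CPM in the control and 104 and 93.8 with VTP50469 (-1.59 ± 0.16). These were 3.78-fold and 3.02-fold lower, and the other called enzymes of the class moved less. For PSPH the values were 44.3 and 50.1 CPM in the control and 28.3 and 23.9 with VTP50469 (-0.85 ± 0.17). For PHGDH they were 122 and 142 CPM in the control and 88.8 and 66.3 with VTP50469 (-0.76 ± 0.17), and for MTHFD2 259 and 289.7 CPM in the control and 170.0 and 175 with VTP50469 (-0.67 ± 0.15).

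Of the asparagine, proline and transaminase enzymes 4 of 5 were called lower in MV4-11 (all genes: 9.34%). PYCR1 was at 62.5 and 64.4 CPM in the control and 27.5 and 21.5 with VTP50469 (-1.37 ± 0.17). ASNS was at 84.9 and 88.0 CPM in the control and 43.0 and 35.4 with VTP50469, a log2 fold-change of -1.14 ± 0.16 (adjusted p = 9.50e-05). GPT2 was at 133 and 155 CPM in the control and 71.3 and 60.3 with VTP50469 (-1.13 ± 0.16). In each the treated libraries lay below the lower control by a wide margin. ALDH18A1 was at 98.3 and 108 CPM in the control and 66.7 and 75.0 with VTP50469 (-0.54 ± 0.15). GOT1 was not called (-0.06 ± 0.18).

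In the class of branched-chain and transsulfuration enzymes 3 of 4 were lower in MV4-11 (all genes: 9.34%). BCAT1 was at 48.2 and 60.5 CPM in the control and 11.4 and 14.7 with VTP50469, 4.16-fold lower (-2.06 ± 0.19). BCAT2, its mitochondrial counterpart, was not called (0.37 ± 0.16). CBS was at 1.52 and 2.09 CPM in the control and 0.319 and 0.412 with VTP50469 (-2.30 ± 0.44), with 9 and 12 counts in the treated libraries. CTH, which was not called in MOLM13, was at 15.0 and 14.6 CPM in the control and 5.95 and 6.35 with VTP50469 (-1.26 ± 0.19). In each of the 3 genes both treated libraries lay below both controls.

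The synthetases in MV4-11 were led by GARS1 at 427 and 377 CPM in the control and 203 and 176 with VTP50469 (-1.09 ± 0.16). IARS1 was at 329.9 and 339.5 CPM in the control and 172 and 178 with VTP50469 (-0.94 ± 0.15). MARS1 was at 255 and 265 CPM in the control and 169 and 141 with VTP50469 (-0.74 ± 0.15). The element searched for above was matched in these 3, across the start in MARS1, and also in GOT1, which was not called in this line. Whether the element has a part in these changes was not tested. EPRS1 was at 349.8 and 364 CPM in the control and 252 and 256 with VTP50469 (-0.49 ± 0.15). WARS1 (-0.43 ± 0.15) and SARS1 (-0.23 ± 0.15) were not called. Leaving out any 1 of the 4 libraries left between 19 and 21 of the 32 genes called. Without control replicate 1, the library with the high mitochondrial share, 20 were lower, and the calls of ATF5 (-0.43), DDIT3 (-0.44) and EPRS1 (-0.53) were lost while NUPR1 became higher (1.34). Without control replicate 2, TRIB3 (-0.36), SESN2 (-0.58), ALDH18A1 (-0.48) and EPRS1 (-0.46) were lost. ALDH18A1 (-0.49) and EPRS1 (-0.51) were lost without VTP replicate 1, and ATF5 (-0.41), DDIT3 (-0.42) and TRIB3 (-0.47) without VTP replicate 2, when NUPR1 again passed (1.11).

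In OCI-AML3 cells, VTP50469 at 500 nM changed few of these genes, and by little. ATF4 was at 467, 473 and 463 CPM in the control and 419.6, 411 and 408 with VTP50469, lower in every treated library but below the fold limit (-0.18 ± 0.022). GPT2 was at 66.8, 64.8 and 62.7 CPM in the control and 47.2, 48.4 and 47.6 with VTP50469 (-0.44 ± 0.033, adjusted p = 3.05e-07). STC2 was at 10.01, 9.62 and 8.91 CPM in the control and 6.76, 7.40 and 6.51 with VTP50469 (-0.46 ± 0.069). In these genes the 3 treated libraries lay below all 3 controls. PSAT1 was at 150.4, 160.1 and 151 CPM in the control and 119, 123 and 124 with VTP50469 (-0.34 ± 0.031). NUPR1 was at 0.429, 0.422 and 0.444 CPM in the control and 0.694, 0.668 and 0.801 with VTP50469, the 1 gene called higher (0.74 ± 0.20), and it was not called by DESeq2. ASNS, at 61.3, 64.2 and 63.6 CPM in the control and 69.0, 68.2 and 65.7 with VTP50469, was not called (0.10 ± 0.032), with the treated libraries a little above the controls. Without scaling factors 2 of the 32 genes were higher and 2 lower in this line, with PPP1R15A called (0.37) and PSAT1 not (-0.28). PSAT1 missed the fold limit without control replicate 2 (-0.30) or VTP replicate 1 (-0.32), PPP1R15A (0.32 ± 0.039) passed it without control replicate 1 (0.35), control replicate 2 (0.33) or VTP replicate 2 (0.35), and VLDLR (-0.31 ± 0.045) without control replicate 3 (-0.33) or VTP replicate 3 (-0.32). GOT1 was not tested in this line, for want of counts.

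**Figure D4:**
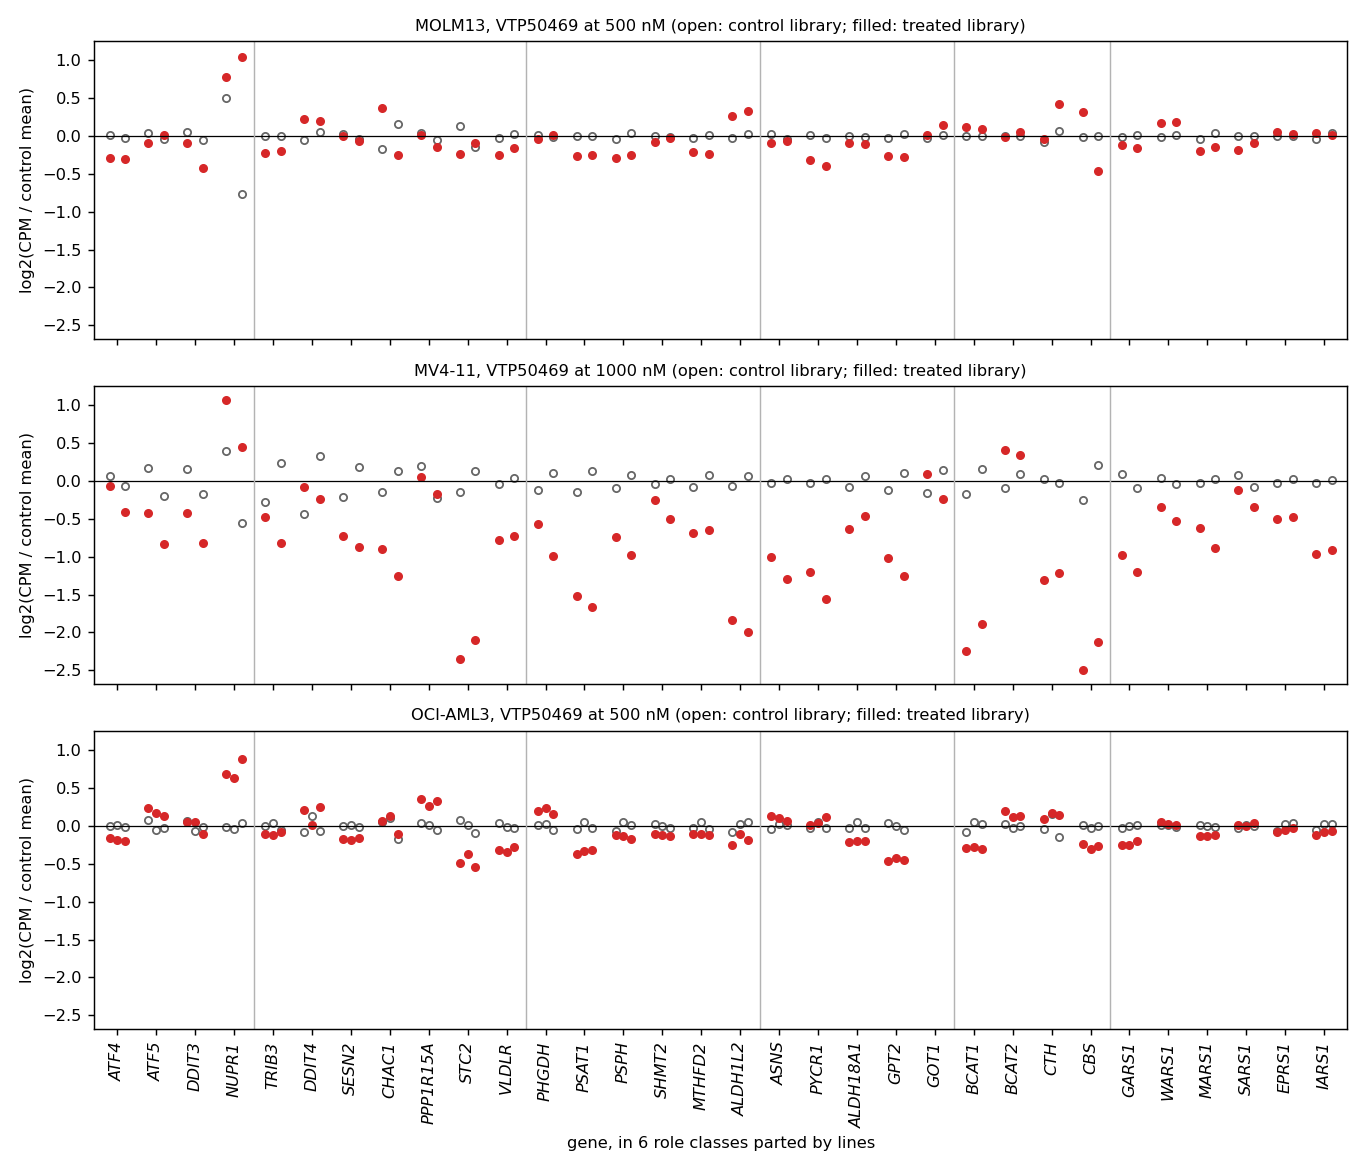
Log2 ratio of each library's CPM to the control mean of its line (y axis) for the 32 genes (x axis, in 6 role classes), with open circles for controls and filled ones for VTP50469, drawn by line (MOLM13 and OCI-AML3 at 500 nM, MV4-11 at 1000 nM). In MV4-11 the treated libraries of STC2, BCAT1 and CBS lie lowest, with fitted log2 fold changes of -2.22, -2.06 and -2.30, and GOT1 is not drawn for OCI-AML3.

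At the matched dose of 500 nM the responses of OCI-AML3 and MOLM13 to VTP50469 were compared in a fit of all libraries. Of the 32 genes 1 responded higher in OCI-AML3 than in MOLM13 and 1 lower (all genes: 2.6% and 1.49%). PYCR1 was the former (difference 0.45 ± 0.11, adjusted p = 0.0159): it fell in MOLM13 and was at 32.8, 34.5 and 32.6 CPM in the control and 33.7, 34.4 and 36.3 with VTP50469 in OCI-AML3. ALDH1L2 was the latter (-0.45 ± 0.10, adjusted p = 0.0112), with 47.0, 50.6 and 51.4 CPM in the control and 41.8, 46.3 and 43.5 with VTP50469 in OCI-AML3 and the values above its control in MOLM13 given earlier. That fit put biological variation between replicates at 6.14%, against 3.06% in the fit of MOLM13 alone and 3.16% in that of OCI-AML3. Standard errors of this difference may thus overstate the spread of these lines, and its calls may be too few. Both calls rest on few libraries. Without MOLM13 control replicate 1 or VTP replicate 2 neither passed (0.44 and 0.41 for PYCR1, -0.41 and -0.41 for ALDH1L2), and PYCR1 failed also with limma-voom and quantile normalization (0.37) and without MOLM13 control replicate 2 (0.47) or OCI-AML3 VTP replicate 3 (0.42). BCAT1 (-0.37 ± 0.12) passed without any 1 of the 4 MV4-11 libraries (-0.36 and -0.38 without control replicates 1 and 2), and PPP1R15A (0.41 ± 0.15) without MV4-11 control replicate 1 (0.42) or 2 (0.40), which made 4 called genes. The difference between MV4-11 and the other lines in this response was not tested here, since the dose differed.

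MOLM13 with both agents and MV4-11 with VTP50469 alone share no library, so their values can be set side by side. With 24 and 23 of 32 genes called lower, most of the lists coincide by their size alone, so the genes whose calls differ are named. ATF4, BCAT2, GOT1, SHMT2 and WARS1 were called lower in MOLM13 alone, and ATF5, CTH, SESN2 and VLDLR in MV4-11 alone. A missing call is not a missing change. SHMT2 and WARS1 fell beyond the fold limit in MV4-11 without passing the test, and VLDLR fell in MOLM13 short of that limit. Pearson's r of the log2 fold-changes over the 32 genes was 0.663 and Spearman's rho 0.570, a description across genes that are not independent. With OTX015 alone in MOLM13 against VTP50469 in MV4-11, r was 0.268 with rho 0.445. There 18 genes were called lower in both, against 19 when MOLM13 had both agents. NUPR1, with 13 counts in the MOLM13 controls and 1 with OTX015, lay far out (-3.39 with OTX015, 0.83 in MV4-11). Its part in this r was not tested. ATF5 was called higher in MOLM13 with both agents (0.42 ± 0.064) and lower in MV4-11 (-0.61 ± 0.18), though the doses, agents and media differed.

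Without any agent, the lines differed in many of these genes, which in total were called against MOLM13 about as often as all genes were. Untreated MV4-11 had 12 genes higher and 12 lower than untreated MOLM13 (all genes: 34.2% and 29.3%), and 21 higher and 3 lower than OCI-AML3 (all genes: 34.3% and 33.1%). OCI-AML3 had 6 higher and 17 lower than MOLM13 (all genes: 33.7% and 30.5%). Line and, for MV4-11, medium cannot be told apart here, and the CPM in this account are on 1 scale for all 18 libraries. The fit of all 18 libraries put biological variation between replicates at 6.14%, against 13.2% in the fit of MV4-11 alone. Standard errors of MV4-11 against the other lines, here and below, may thus understate the spread of its replicates, and its calls may be too many. Those of OCI-AML3 against MOLM13 may instead overstate the spread, which was 3.16% and 3.06% in the fits of these lines alone. Of the effectors 5 of 7 were higher in MV4-11 than in MOLM13, STC2 was lower (-1.11 ± 0.15) and TRIB3 was not called (0.07 ± 0.12), and 3 of the 4 regulators were higher. ATF5 was at 389.9 and 297 CPM in MV4-11, 40.5 and 38.6 in MOLM13 and 29.2, 26.6 and 27.2 in OCI-AML3, a log2 difference of 3.12 ± 0.13 from MOLM13. CHAC1 was at 66.2 and 78.7, 4.55 and 5.77 and 10.6, 11.1 and 9.05 CPM in the same order (3.81 ± 0.19). DDIT3 (2.71 ± 0.16), PPP1R15A (2.41 ± 0.11), NUPR1 (2.29 ± 0.46), CTH (2.17 ± 0.15), SESN2 (1.40 ± 0.094) and VLDLR (1.38 ± 0.069) were likewise above MOLM13, and all 6 were above OCI-AML3 too. The ATF4 mRNA was not part of this: it averaged 601 ± 48.5 CPM (SD, n = 2) in MV4-11 and 565 ± 7.72 (n = 2) in MOLM13, a difference that was not called (0.09 ± 0.081), and 441 ± 5.47 (n = 3) in OCI-AML3 (-0.36 ± 0.073 from MOLM13, called, but -0.16 and not called without scaling factors). Of the calls against MOLM13, those of DDIT4 and MTHFD2 were lost without MV4-11 control replicate 2 (0.22 and 0.32) and that of GARS1 without control replicate 1 (0.32). Without scaling factors the median of all genes itself moved to 0.24 for OCI-AML3 and 0.21 for MV4-11 against MOLM13.

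PHGDH, PYCR1 and BCAT1 had their highest level in MOLM13. PHGDH was at 209 and 206 CPM in MOLM13. It was at 121 and 138 CPM in MV4-11, while OCI-AML3 had 48.7, 49.4 and 46.7 CPM, a log2 difference of -2.11 ± 0.085 from MOLM13. PYCR1 followed the same order, with 148 and 145, 62.4 and 62.9 and 30.9, 32.6 and 30.7 CPM, and each step passed the test (-1.23 ± 0.084 for MV4-11 and -2.22 ± 0.075 for OCI-AML3 against MOLM13, 1.00 ± 0.076 between the other two). BCAT1 was also highest in MOLM13 (-1.18 ± 0.081 for OCI-AML3 and -1.63 ± 0.095 for MV4-11 against it), and the call between the other two (-0.44 ± 0.086) was lost without MV4-11 control replicate 1 (-0.32). CBS, in contrast, was highest in OCI-AML3, at 20.0, 19.6 and 19.9 CPM in OCI-AML3 against 3.07 and 3.12 in MOLM13 (2.68 ± 0.14) and 1.51 and 2.04 in MV4-11. SARS1 was not called between any pair of lines, with differences between -0.08 and 0.21.

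GOT1 was barely detected in OCI-AML3. The 6 libraries of that line held 2 counts of it in all, 1 in each of control replicates 1 and 3, while the 2 control libraries of MOLM13 held 1707 and those of MV4-11 1103. Against the OCI-AML3 controls the ratio of levels was 3525 for MOLM13 (95% counting interval 974 to 29132) and 1795 for MV4-11 (496 to 14842). All 3 treated OCI-AML3 libraries were at 0, so that with a floor of 3 counts per library GOT1 was at least 847-fold higher in treated MOLM13 and at least 387-fold higher in treated MV4-11. GPT2 and BCAT2, other aminotransferases of the list, were both detected in OCI-AML3, at 62.9, 61.2 and 59.0 and 39.3, 38.2 and 38.6 CPM. The fitted log2 values of GOT1 between lines depend on the prior count and are not given. These intervals cover counting error only.

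**Figure D5:**
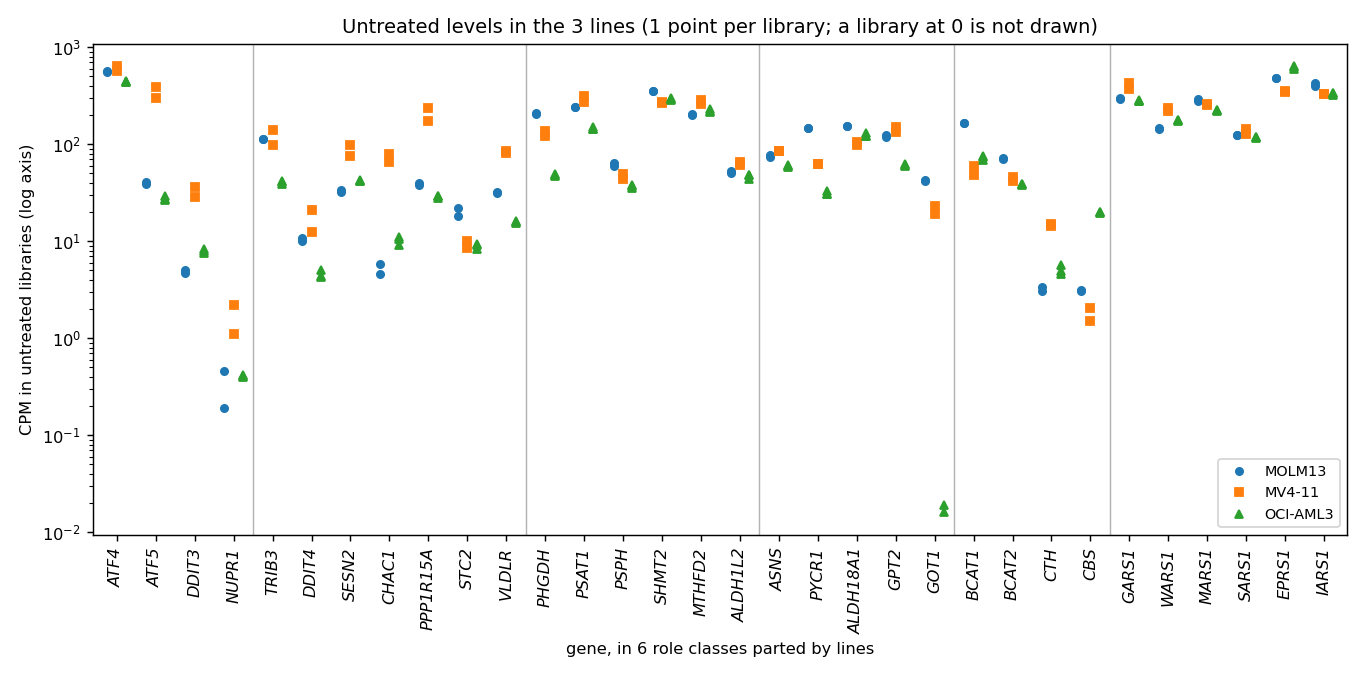
CPM (log axis) of the 32 genes in the 7 control libraries, as circles for MOLM13, squares for MV4-11 and triangles for OCI-AML3. ATF5, DDIT3, CHAC1 and PPP1R15A stand apart in MV4-11, CBS stands high and GOT1 near the floor in OCI-AML3, and ATF4 lies in a narrow band of this log axis.

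Other genes of the pathway were read from 8 further lists, which are descriptions with no test of a list. Their counts with both agents in MOLM13 stand beside 30.9% of all genes lower and 31.2% higher, and some lists lie near those shares. With both agents, 12 of 14 other cytosolic tRNA synthetases were lower and 0 higher, among them VARS1 (-1.47 ± 0.039), FARSA (-1.36 ± 0.041) and LARS1 (-1.36 ± 0.044), and 12 of 17 mitochondrial ones. Of 13 other ATF4 targets tested, 8 were lower and 3 higher. The amino acid transporter SLC7A5 fell by 2.22 ± 0.041 and the translation repressor EIF4EBP1 had -1.94 ± 0.042, whereas the glutamine transporter SLC38A2 rose by 1.04 ± 0.046 and KLHL24 by 1.63 ± 0.080. Of the serine, glycine and folate enzymes outside the 32, 5 of 13 were lower, with MTHFD1L at -2.33 ± 0.052 and GCSH, of the glycine cleavage system, at -2.42 ± 0.15, and 4 were higher. ASS1, which joins citrulline and aspartate, fell by 2.23 ± 0.041, in a list of proline, aspartate, glutamate and branched-chain enzymes where 8 of 16 were lower and 5 higher.

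Upstream of ATF4, 9 of 16 genes for eIF2 kinases, eIF2 and its exchange factor eIF2B were lower and 2 higher with both agents, EIF2B3 at -1.13 ± 0.066 and the kinase EIF2AK2 at 0.51 ± 0.082. Among partners of ATF4 and other stress bZIP factors 4 of 10 rose and 3 fell, near the shares of all genes, with CEBPB at 1.19 ± 0.073 and FOSL1 at -1.57 ± 0.099. Chaperones and other branches of the unfolded protein response had 13 of 19 lower and 3 higher, with CALR at -1.61 ± 0.036 and HSPA5, the chaperone BiP, at -1.38 ± 0.038. In MV4-11 with VTP50469, where 9.34% of all genes were lower and 11.4% higher, the same lists gave 8 of 14 cytosolic and 3 of 17 mitochondrial synthetases lower, 8 of 14 other ATF4 targets lower, led by the glycine transporter SLC6A9 (-2.38 ± 0.23), 7 of 13 serine, glycine and folate enzymes lower and 1 higher, and 1 of 16 in the proline, aspartate, glutamate and branched-chain list lower. The eIF2 list had 3 of 16 lower, the bZIP list 5 lower and 2 higher of 10, and the chaperone list 9 of 19 lower, with XBP1 at -1.18 ± 0.15. In OCI-AML3 and in MOLM13 with VTP50469 alone, each of the 8 lists held at most 3 called genes in either direction.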

How the data were processed

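There were 18 RNA-seq libraries in 8 groups. The authors deposited raw read counts, whole numbers that were not normalized, over 58037 Ensembl gene IDs, and 55646 IDs were matched to symbols here. STAR and hg38 stand in the submitters' processing notes, with no version, but TopHat2 and Cufflinks2 in the study's methods. The sources used here do not give the counting program, strand setting or annotation. Unknown strand leaves overlapping genes unresolved, and reads of near-identical copies may be split or dropped. Counts were used as deposited with edgeR 4.0.16 (glmQLFit and glmQLFTest, R 4.3.3): filterByExpr, TMM scaling, a group-means model without covariates, fitted within each line for treatments and over all 18 libraries between lines. Standard errors (after ±) were taken as the log2 fold-change divided by the square root of F. The study itself used limma with the same fold limit, 1.25. DESeq2 1.42.0, limma-voom 3.58.1 and other scalings, filters and fits were alternatives. The fits were also run on simulated counts, drawn with the common dispersion of each fit. This leaves out the differences in spread between genes, so the run does not test the fits at the spread of the data.

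Totals of 19320216 to 59711884 counts put a floor of 3 counts at 0.0502 to 0.155 CPM per library. Replicate pairs differed by more than sampling noise (chi-square per degree of freedom 1.46 to 43.9), so all were kept, and where they are not separate cultures the p-values measure technical spread. The titles number the MV4-11 libraries 1 and 2, the descriptions 2 and 3. Promoter sequences are RefSeq's, on GRCh38.p14. The 32 genes and the lists were chosen with earlier results of these data known. All 32 may be named; every library of a comparison is given for ATF4, ASNS, the 2 largest called changes per role class with both agents in MOLM13, and genes called with VTP50469 alone, and at most 3 genes per direction for the further lists. Some markers and genes of these lists are not reported here.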

Additional observations from a re-analysis of the deposited data

Results flagged for a closer look

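In MOLM13 the response to VTP50469 differed with and without OTX015 for 16 genes, by the test of the interaction (edgeR's quasi-likelihood test, adjusted over all genes). The difference of the 2 responses, on the log2 scale, was -1.87 for BCAT1, -1.85 for ALDH1L2, -1.49 for PYCR1 and -1.15 for PSAT1. It was -0.97 for IARS1, -0.84 for STC2, -0.83 for ALDH18A1, -0.70 for GPT2 and -0.66 for EPRS1. It was -0.47 for MARS1, -0.45 for GARS1, -0.43 for ATF4, -0.39 for MTHFD2 and -0.33 for SHMT2, all lower in the presence of OTX015. PPP1R15A (0.52) and VLDLR (0.42) differed in the other direction. Among these, STC2 and SHMT2 had calls that depended on single libraries.

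Between lines at 500 nM, the VTP50469 response of PYCR1 was higher in OCI-AML3 than in MOLM13 by 0.45 and that of ALDH1L2 lower, at -0.45. Each lost its call without MOLM13 control replicate 1 or VTP replicate 2.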

How the results depend on the processing

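None of the 32 genes that was called in a comparison changed its direction under the alternatives run. Of 2936 values of these genes under other settings, 54 lost a call and 106 gained one, and of 4154 values with 1 library left out, 46 lost and 41 gained. The number of the 32 genes called with VTP50469 in MOLM13 was 1, and 2 without the filter on low counts, 0 with limma-voom and quantile normalization, 2 with all libraries in 1 fit and 13 without the fold limit. Leaving out each library gave 1 to 2. In OCI-AML3 it was 4, and 23 without the fold limit (3 to 5 with libraries left out). For the difference of responses between OCI-AML3 and MOLM13 it was 2, and 4 without the filter (0 to 4 with libraries left out). The other counts stayed within 1.5 times: 25 to 29 for OTX015, 25 to 28 for both agents against control, 26 to 27 and 15 to 22 for both agents against VTP50469 and OTX015, 14 to 19 for the interaction, 19 to 27 in MV4-11, and 19 to 28, 22 to 27 and 23 to 30 between untreated lines.

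Without scaling factors the median log2 fold-change of all genes moved to 0.11 for both agents against control, 0.24 for untreated OCI-AML3 and 0.21 for untreated MV4-11 against MOLM13 (0.16 with upper-quartile factors), and the share of all calls that were higher went from 60.6 to 74.4% with VTP50469 in MOLM13 and from 65.5 to 76.6% in OCI-AML3. In MOLM13 it was 50.04% with DESeq2, 49.5% without the filter, 46.2% without the fold limit and 47.6% in 1 fit of all libraries. In OCI-AML3 it was 50.8% with quantile normalization and 49.5% without the fold limit. The interaction in a fit of all libraries had 58.8% of calls higher in place of 47.6%. In MV4-11 all called genes numbered 3208, and 1798 without control replicate 1, 1637 without VTP replicate 1 and 5934 in 1 fit of all libraries. Without the fold limit the calls over all genes were 4691 in place of 1910 with VTP50469 in MOLM13 and 6338 in place of 2178 in OCI-AML3. For the line difference they were 721, and 467, 473 and 462 without MOLM13 control replicate 1, control replicate 2 and VTP replicate 2.

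With the replicate number as a block, the 32 genes gave 25 calls in MV4-11 (NUPR1 at 0.83 and WARS1 at -0.44 gained) and the same counts elsewhere. Same-numbered libraries deviated with correlations between -0.0446 and 0.0978, so the numbers were not taken as pairs. The cause of these shifts was not tested. Counts below about 10 per library, as for CBS with both agents and NUPR1 with OTX015 in MOLM13 and GOT1 in OCI-AML3, and the wide spread of the MV4-11 replicates limit precision.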
